A study of Homo sapiens with 6 samples.

Results

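The YAP/TAZ target genes described here are 10 human genes whose transcription the YAP and TAZ coactivators are known to drive: CYR61 (now CCN1), CTGF (now CCN2), AMOTL2, AMOTL1, AJUBA, AXL, CRIM1, TGFB2, F3 and NUAK2. They were chosen by symbol, and 6 of the 10 had a row in a table of 12306 gene rows: CYR61, CTGF, AMOTL2, AMOTL1, AJUBA and CRIM1. AXL, TGFB2, F3 and NUAK2 had no row, so no level can be given for them here. RNA was sequenced from the 92.1 cell line, an established human uveal melanoma line, grown in RPMI-1640 medium with serum. One group was given 1 µM VS-4718, an inhibitor of the focal adhesion kinase (FAK), for 2 h and the other DMSO vehicle for the same time, with 3 libraries in each. The design text calls the samples independent, but the labels name no separate cultures. The p-values therefore reflect only how these 6 samples vary, and that variation may be technical.

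YAP and TAZ do not bind DNA themselves. They enter the nucleus and bind the TEAD transcription factors, which carry them to promoters and enhancers, and the LATS kinases of the Hippo pathway hold them in the cytoplasm. Uveal melanomas are usually driven by activating mutations of the Gq-class genes GNAQ or GNA11, and FAK, a kinase of integrin adhesions, has been linked to YAP activity downstream of that signal. Several of the target genes feed back on the pathway: the angiomotin family protein AMOTL2 binds and restrains YAP, while the LIM protein AJUBA binds and restrains the LATS kinases.

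Of the target genes with a row and a listed promoter, CTGF, AMOTL2 and AJUBA carry the letters that TEAD factors recognise. In AMOTL2 and AJUBA this holds only for the second of the 2 listed starts. AMOTL1, which also had a lower mean with VS-4718, held no match and is not shown. The 3 promoters shown are thus those with a match. Each is the 250 bases before an annotated start in RefSeq (GRCh38.p14), 5′ to 3′ on the gene's strand, which is the minus strand in all 3, with GGAATG or its reverse complement CATTCC in capitals. The CTGF window is chr6:131951373-131951622, the AMOTL2 window, before the second of its 2 listed starts, is chr3:134374448-134374697, and the AJUBA window, also before its second start, is chr14:22976843-22977092.
CTGF: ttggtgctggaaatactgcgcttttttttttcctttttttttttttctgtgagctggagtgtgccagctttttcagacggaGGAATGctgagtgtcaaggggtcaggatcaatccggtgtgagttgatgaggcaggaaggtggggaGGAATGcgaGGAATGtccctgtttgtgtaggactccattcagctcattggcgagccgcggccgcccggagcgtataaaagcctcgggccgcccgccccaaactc
AMOTL2: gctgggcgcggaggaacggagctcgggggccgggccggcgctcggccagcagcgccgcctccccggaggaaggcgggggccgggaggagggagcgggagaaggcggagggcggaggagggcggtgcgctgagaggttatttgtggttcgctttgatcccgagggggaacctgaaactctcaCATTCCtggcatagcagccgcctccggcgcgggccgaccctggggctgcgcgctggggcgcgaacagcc
AJUBA: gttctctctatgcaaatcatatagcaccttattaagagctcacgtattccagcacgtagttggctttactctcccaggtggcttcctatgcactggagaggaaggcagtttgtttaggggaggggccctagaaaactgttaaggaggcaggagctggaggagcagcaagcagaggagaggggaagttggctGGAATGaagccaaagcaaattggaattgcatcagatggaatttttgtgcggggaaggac
CTGF held the TEAD letters at 3 places, beginning 169, 104 and 95 bases before the start, and TATAAA beginning 32 bases before it. The AMOTL2 match began 69 bases and the AJUBA match 59 bases before the start, and the first listed start of each of these 2 genes held none. Both of these second-start windows lie inside the gene's span in GENCODE 29.

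Of all 35116 promoter windows of the same length in that table, 11.9% held the TEAD letters at least once on either strand. The letters occurred 3 or more times in 0.0826% of them. These shares are per window, and AMOTL2 and AJUBA had 2 windows each. AMOTL1 had 1 listed window, without a match. Among the target genes with no row, NUAK2 held the TEAD letters at 2 places and TGFB2 and AXL at 1 place each, AXL before the second of its 2 starts. F3 held none, and its window had the AP-1 letters TGANTCA at 2 places, letters that 6.57% of all windows hold. No target gene's window held a CArG box, the motif of serum response factor, which 1.16% of all windows held. CYR61 and CRIM1 had no entry. None of the motifs found in these windows overlapped another. A match is a run of letters and not a measured binding site, and no binding was measured here.

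**Figure D1:**
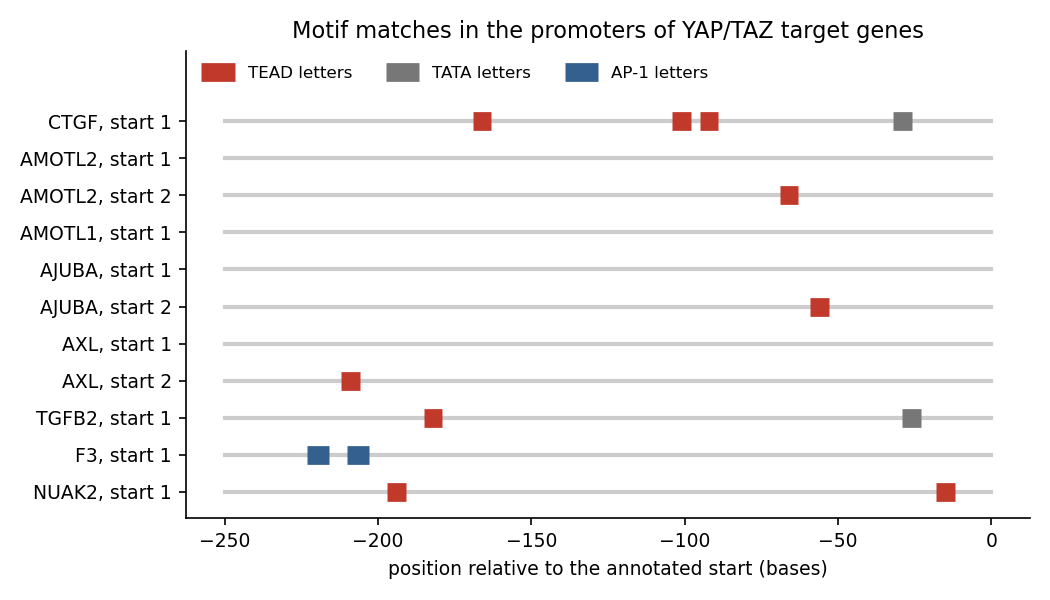
Motif matches in the 250 bases before each annotated start of the target genes. The horizontal axis is the position in bases relative to the start, and each grey line is 1 promoter window. Blocks are TEAD (red), AP-1 (blue) and TATA (grey) letters. TEAD and AP-1 matches cover either strand, and TATAAA was sought on the gene's strand only. CTGF carries 3 TEAD blocks, and AMOTL2 and AJUBA carry 1 each at their second start.

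Expression is given on a log2 scale of TPM-like units (abundance per transcript length, scaled to a common sum). Such units hold no read totals, and library depth is therefore unknown. On the linear scale the columns summed to between 836527 and 840714. Many row names follow mouse usage although the labels name a human line and build: 2665 rows had no human match. The transcript set behind the rows is not stated in the labels, so the groups are compared within a row. Levels and sums across rows are given only as they stand in the table. The lineage of the cells showed in their markers, with a summed linear value over 10 melanocyte markers of 7097 to 7774 with VS-4718 and 7307 to 7892 in vehicle. Most of that sum came from PMEL and TYRP1, and MLANA, TYR, DCT and GPNMB were too low to be tested. Over 8 fibroblast markers, 5 with a row, the sum was 1.22 to 1.72 with VS-4718 and 0.630 to 1.51 in vehicle. Over 8 endothelial markers, 3 with a row, it was 23.9 to 28.8 with VS-4718 and 21.9 to 26.6 in vehicle, most of it from EGFL7, and CDH5 and VWF had no row.

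The comparison asks whether target genes of YAP and TAZ differed after 2 h with the FAK inhibitor. All 6 target genes with a row passed the filter on low values (a row mean above the lowest 25%) and were tested within limma's fit of 9229 rows. CYR61 fell, and it was the only one of the 6 to pass Benjamini-Hochberg adjustment over all rows at a threshold of 0.05; in that direction 0.0867% of all tested rows passed. AMOTL2 and AJUBA were also lower in every VS-4718 library than in every vehicle library, but did not pass, and neither did CTGF, AMOTL1 or CRIM1. Before adjustment, CYR61, AMOTL2 and AJUBA had a limma p under 0.05, as did 6.74% of all tested rows in the lower direction. These 3 of the 6 had groups that did not overlap in the lower direction, against 11.2% of all tested rows. The median log2 fold change of the 6 (VS-4718 minus vehicle) was -0.66 and that of all tested rows was -0.03, and 58.2% of all rows had a lower mean with VS-4718. The genes were named with earlier results of these data known, so these counts describe them and test nothing. In bulk RNA, fewer cells with a transcript and less of it per cell cannot be told apart.

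**Figure D2:**
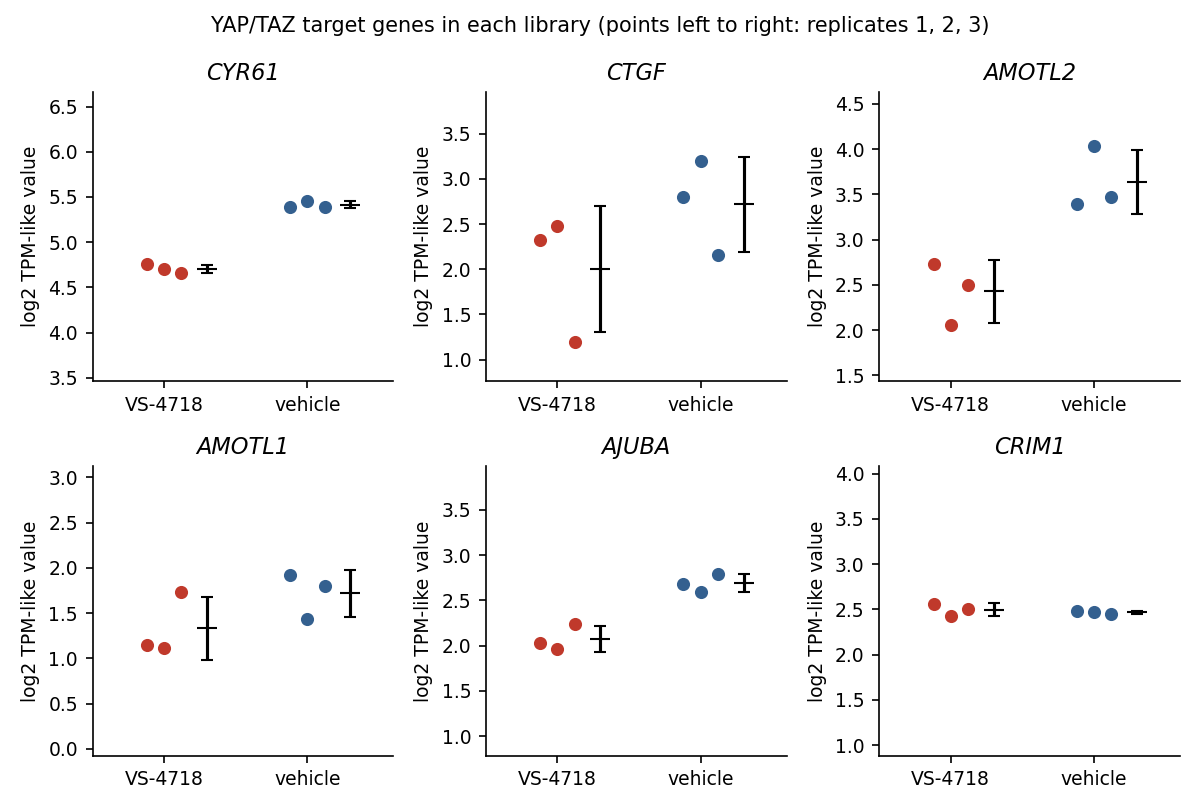
Log2 TPM-like value of each target gene in every library (vertical axis, the same span of log2 units in each panel), VS-4718 in red left of vehicle in blue; the bar beside each group is the mean ± SD of 3 libraries. CYR61, AMOTL2 and AJUBA show no overlap between groups, while the CTGF, AMOTL1 and CRIM1 groups overlap.

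CYR61 and CTGF encode secreted matrix-associated proteins of the CCN family, and both are short genes with early, transient expression after many stimuli. CYR61 lies on chromosome 1 from 85580761 to 85583962 in GENCODE 29 (GRCh38). It stood at 4.76, 4.70 and 4.66 log2 units in VS-4718 replicates 1, 2 and 3, against 5.39, 5.46 and 5.39 in vehicle replicates 1, 2 and 3. The spread within each group was far below the gap between them: the lowest vehicle value lay above the highest VS-4718 value in a gene whose SD was 0.05 with VS-4718 and 0.04 in vehicle (n = 3 each). On the linear scale the geometric mean was 26.1 TPM-like units with VS-4718 and 42.7 in vehicle, so that CYR61 fell by 38.8%. The log2 fold change was -0.71 (SE 0.07, 95% interval -0.86 to -0.55), with a limma adjusted p of 0.0233, the 5th smallest p of the 9229 rows. Its residual SD was larger than that of only 3.99% of the 500 rows nearest to it in level.

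The call for CYR61 needed all 6 libraries. With VS-4718 replicate 1, 2 or 3 left out the limma adjusted p was 0.108, 0.173 and 0.0914, and with vehicle replicate 1, 2 or 3 left out it was 0.13, 0.125 and 0.148. The log2 fold change in those fits ran from -0.73 to -0.69. In limma without the mean-variance trend CYR61 did not pass either (adjusted p = 0.0781), and there no row of the table passed, with 910 at an unadjusted p under 0.05.

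CTGF, the other secreted target, had a change of like size and a much wider spread. It lies on chromosome 6 from 131948176 to 131951373. Its values were 2.32, 2.47 and 1.20 log2 units in VS-4718 replicates 1, 2 and 3, against 2.80, 3.20 and 2.16 in vehicle replicates 1, 2 and 3. The groups overlapped, because vehicle replicate 3 lay below VS-4718 replicates 1 and 2; replicate 3 was the lowest library in both groups. VS-4718 and vehicle differed by -0.72 log2 units (SE 0.40, 95% interval -1.67 to 0.23, limma adjusted p = 0.609), so neither no change nor a fall larger than that of CYR61 lies outside the interval. Its residual SD was larger than that of 93.6% of the 500 rows nearest in level. With VS-4718 replicate 3 left out the log2 fold change was -0.32, and with vehicle replicate 3 left out it was -1.0; without vehicle replicate 2 it was -0.48.

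The log2 ratio of CYR61 to CTGF within a library was 2.71 ± 0.66 with VS-4718 and 2.69 ± 0.50 in vehicle (SD, n = 3 each), a difference of 0.01 beside a wide spread. The exact permutation test, two-sided, gave p = 1, where the smallest p it allows is 0.1, so it does not show that the 2 genes moved alike. It was 1 of 3 such ratios computed, all chosen after the values were seen.

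AMOTL2, AMOTL1 and AJUBA encode scaffold proteins of cell junctions and the actin cortex. AMOTL2 lies on chromosome 3 from 134355874 to 134375479. It stood at 2.73, 2.05 and 2.50 log2 units in VS-4718 replicates 1, 2 and 3, against 3.39, 4.04 and 3.47 in vehicle replicates 1, 2 and 3. The highest VS-4718 library lay below the lowest vehicle library, and VS-4718 replicate 2 and vehicle replicate 2 were the extremes. The geometric mean was 5.39 TPM-like units with VS-4718 and 12.4 in vehicle. The log2 fold change of -1.2 (SE 0.24, 95% interval -1.77 to -0.64) was the largest among the 6 target genes and the 19th lowest of the 9229 rows. It did not pass over all rows (limma adjusted p = 0.222, unadjusted p = 0.0015), with a residual SD above that of 83.8% of the rows nearest in level.

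AMOTL1, a second angiomotin family member that binds YAP, lies on chromosome 11 from 94706431 to 94876753 and had the lowest level of the 6. Its values were 1.15, 1.11 and 1.73 log2 units in VS-4718 replicates 1, 2 and 3, against 1.92, 1.43 and 1.80 in vehicle replicates 1, 2 and 3. The groups overlapped through VS-4718 replicate 3, which lay above vehicle replicate 2. AMOTL1 had a log2 fold change of -0.39 (SE 0.23, 95% interval -0.93 to 0.16, limma adjusted p = 0.632). With VS-4718 replicate 3 left out it was -0.59. The log2 ratio of AMOTL2 to AMOTL1 within a library was 1.10 ± 0.43 with VS-4718 and 1.92 ± 0.61 in vehicle (SD, n = 3 each). The difference was -0.82, and the groups overlapped. Its exact permutation p was 0.2 (two-sided; 0.3 adjusted over the 3 ratios), in a design that cannot go below 0.1 before adjustment, so whether the 2 paralogs responded unequally cannot be told from it. AMOT, the founding member of the family, lay below the filter in this table, at 0.21 ± 0.48 log2 units with VS-4718 and 0.90 ± 0.10 in vehicle (SD, n = 3 each).

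AJUBA, a LIM-domain scaffold that binds the LATS kinases, lies on chromosome 14 from 22971174 to 22982642. It stood at 2.02, 1.97 and 2.24 log2 units in VS-4718 replicates 1, 2 and 3, against 2.69, 2.59 and 2.79 in vehicle replicates 1, 2 and 3. Every VS-4718 library was below every vehicle library, with a geometric mean of 4.22 TPM-like units with VS-4718 and 6.45 in vehicle. This is a log2 fold change of -0.61 (SE 0.13, 95% interval -0.92 to -0.31). It did not pass over all rows (limma adjusted p = 0.245, unadjusted p = 0.0023), although its size was close to that of CYR61. AJUBA was lower in each fit with a library left out, with log2 fold changes from -0.69 to -0.56. Its LIM-domain relatives LIMD1 and WTIP had log2 fold changes of -0.27 (SE 0.14, limma adjusted p = 0.573) and 0.01 (SE 0.16, adjusted p = 0.992). LIMD1 had -0.14 without VS-4718 replicate 3.

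CRIM1, a membrane protein that binds bone morphogenetic proteins, was the target gene that stayed closest to vehicle. It lies on chromosome 2 from 36355926 to 36551135. Its values were 2.56, 2.43 and 2.51 log2 units in VS-4718 replicates 1, 2 and 3, against 2.49, 2.47 and 2.45 in vehicle replicates 1, 2 and 3. The groups overlapped within a narrow range. Its log2 fold change was 0.03 (SE 0.11, 95% interval -0.22 to 0.28, limma adjusted p = 0.94), and its sign turned to -0.0024 without VS-4718 replicate 1. The interval leaves out a fall of the size seen for CYR61. The log2 ratio of CYR61 to CRIM1 within a library was 2.21 ± 0.06 with VS-4718 and 2.95 ± 0.04 in vehicle (SD, n = 3 each). A ratio within a library does not depend on that library's scaling. This change of -0.74 had no overlap between groups, and its exact permutation p of 0.1 (0.3 adjusted over the 3 ratios) is the smallest that 3 libraries against 3 allow. The pair was chosen after the values were seen. Because CRIM1 hardly varied, the ratio repeats the CYR61 difference and is no separate support for it.

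**Figure D3:**
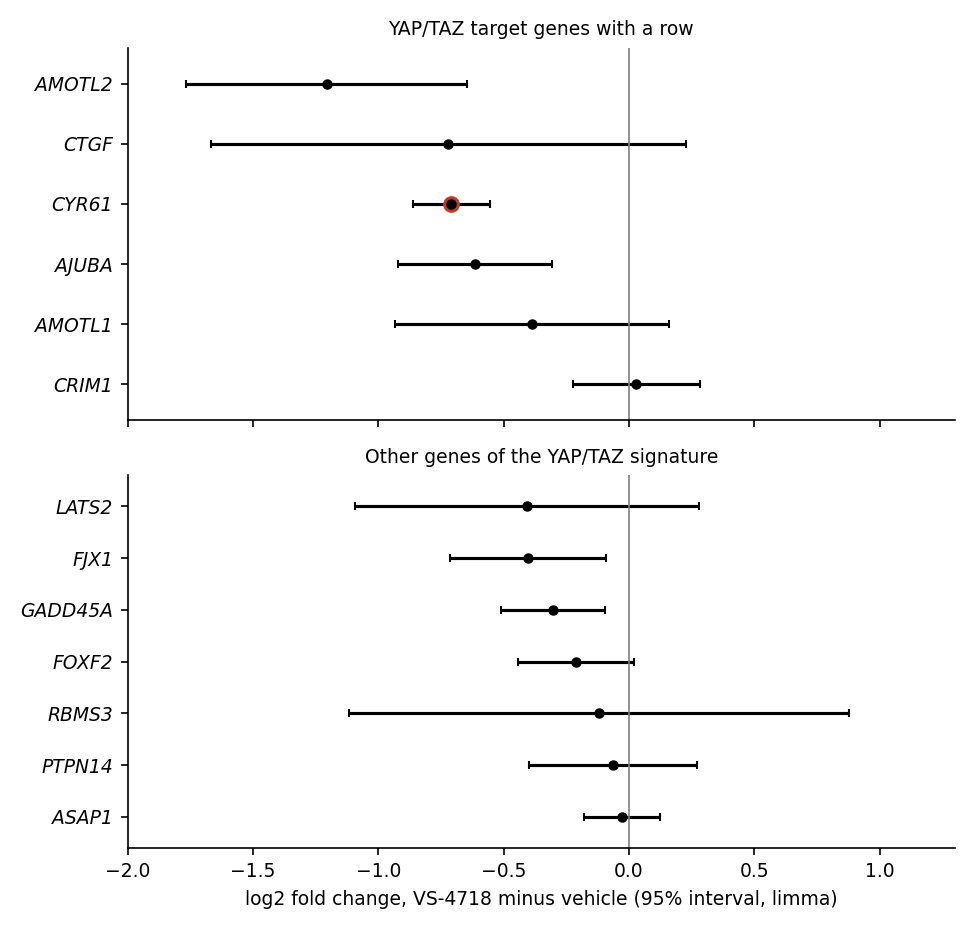
Log2 fold change, VS-4718 minus vehicle, with its 95% interval from limma (horizontal axis). The top panel holds the 6 target genes with a row. The bottom panel holds 7 genes of the YAP/TAZ signature that are not among the target genes. The red ring marks the gene past the adjusted threshold over all rows. CYR61 carries the ring, and the intervals of AMOTL2 and AJUBA also lie below 0.

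The place of each target gene among all tested rows is given as it stands in this table, since the transcript set behind the rows is not known. CYR61 was at percentile 67.7 of row means and AMOTL2 at percentile 33.3, and the other 4 lay between percentile 10.1 for AMOTL1 and percentile 24.4 for CRIM1. Counted from the lowest log2 fold change of the 9229 rows, AMOTL2 was the 19th, CTGF the 89th, CYR61 the 93rd, AJUBA the 137th and AMOTL1 the 457th, while CRIM1 was the 6073rd.

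**Figure D4:**
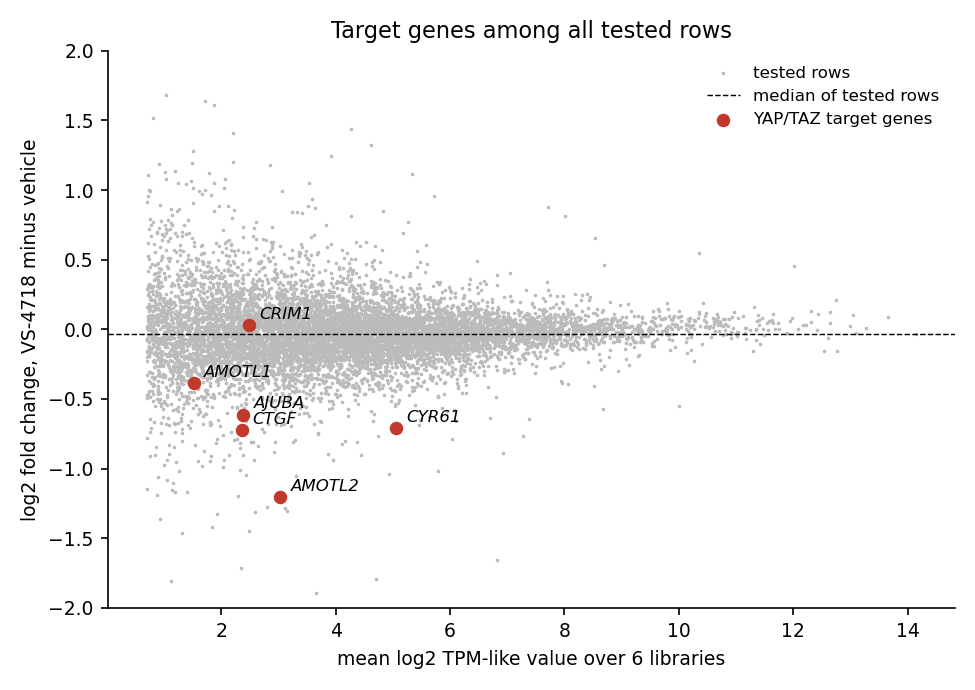
Log2 fold change, VS-4718 minus vehicle (vertical axis), against the mean log2 TPM-like value over 6 libraries (horizontal axis) for 9220 tested rows in grey, with the 6 target genes in red and the median of all tested rows as a dashed line; 9 rows beyond 2 log2 units are not drawn. The spread of the grey rows narrows with level, AMOTL2 and CYR61 lie at its lower edge, and CRIM1 lies in its middle.

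The target genes differ in features that their choice did not use. By the human annotation in GENCODE 29, CYR61 and CTGF each span 3.20 kb with 5 exons, AJUBA spans 11.5 kb with 8 and AMOTL2 19.6 kb with 10. AMOTL1 spans 170.3 kb with 13 exons and CRIM1 195.2 kb with 17, and the median protein-coding gene spans 26.9 kb with 8. The 4 shorter genes thus had log2 fold changes of -1.2 to -0.61 and the 2 longer ones of -0.39 and 0.03; with 6 genes this is a description. The AU-rich letters ATTTA occurred 5.43 times per kb of 3′ UTR in CYR61 and 3.97 times in AJUBA. CRIM1 had 2.88 and CTGF 2.76 per kb, AMOTL1 had 1.18 and AMOTL2 1.09, against a median of 1.59 over all 17880 genes with a 3′ UTR of at least 100 bases. The gene with the largest fold change, AMOTL2, had the lowest density of the 6. No relation between these features and the fold changes was tested.

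Of 14 genes of the pan-cancer YAP/TAZ target signature that are not among the target genes above, 9 had a row and 7 were tested. All 7 had a lower mean with VS-4718, none passed over all rows, and their median log2 fold change was -0.21, within a range of -0.41 to -0.03; 58.2% of all rows had a lower mean. That count was 5 without vehicle replicate 1, and 6 both without VS-4718 replicate 2 and with the libraries scaled to a common median. GADD45A, a stress-response gene, stood at 6.83, 6.65 and 6.96 log2 units in VS-4718 replicates 1, 2 and 3 against 7.10, 7.19 and 7.05 in vehicle replicates 1, 2 and 3, without overlap. Its log2 fold change was -0.30 (SE 0.09, limma adjusted p = 0.366). FJX1 had -0.40 (SE 0.13, adjusted p = 0.401) and FOXF2, a forkhead transcription factor, -0.21 (SE 0.10, adjusted p = 0.546). Their groups did not overlap either. Of all tested rows, 11.2% had groups without overlap in the lower direction.

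LATS2, the Hippo kinase that YAP induces in feedback, had a log2 fold change of -0.41 (SE 0.29, limma adjusted p = 0.683), with VS-4718 replicate 3 at 5.57 and vehicle replicate 3 at 4.96 against the direction of the others. Its log2 fold change was -0.72 with VS-4718 replicate 3 left out and -0.22 with VS-4718 replicate 1 left out. CCDC80, a secreted matrix protein named here after its values were seen, lay below the filter. It stood at -0.89, -0.77 and -0.99 log2 units in VS-4718 replicates 1, 2 and 3 against 1.56, -0.0037 and 1.24 in vehicle replicates 1, 2 and 3. Its adjusted p in the fit of all rows without a filter was 0.316. Of 11 further genes often used as YAP/TAZ targets 2 were tested: EPHA2, a receptor kinase, had a log2 fold change of -0.56 (SE 0.24, limma adjusted p = 0.516) and FSTL1, a secreted glycoprotein, one of 0.11 (SE 0.19, adjusted p = 0.876). EPHA2 had -0.34 without vehicle replicate 3 and -0.82 without vehicle replicate 2, and the sign of FSTL1 turned without VS-4718 replicate 1 (-0.10) or vehicle replicate 2 (-0.01).

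Transcripts of the pathway upstream of the target genes did not pass, where 0.13% of all tested rows passed in either direction. Of 18 tested Hippo kinases, scaffolds, coactivators and TEAD factors 11 had a lower mean and 7 a higher one. Their median log2 fold change was -0.07, and 58.2% of all tested rows had a lower mean. TEAD4, a partner that brings YAP and TAZ to DNA, had -0.34 (SE 0.15, limma adjusted p = 0.526), and STK4, the MST1 kinase, -0.42 (SE 0.16, adjusted p = 0.485). TAOK3 and TAOK2, kinases that activate MST kinases, had -0.11 (SE 0.06, adjusted p = 0.588) and -0.34 (SE 0.21, adjusted p = 0.648). With a library left out TEAD4 ran from -0.44 to -0.19 (without vehicle replicate 1), STK4 from -0.52 to -0.28 and TAOK2 from -0.54 to -0.21. The coactivator genes, named outside the naming rule, had log2 fold changes of -0.06 (SE 0.19) for YAP1 and 0.0044 (SE 0.08) for WWTR1, which encodes TAZ. Transcript levels of YAP1 and WWTR1 say nothing of where the proteins were in the cell, which was not measured.

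Paralogs, ligands and receptors of the target genes likewise gave no call, beside the 0.13% of all tested rows that passed. Of 11 tested, 6 had a lower mean and 5 a higher one, and 58.2% of all tested rows had a lower mean. The median log2 fold change of the 11 was -0.01. MERTK, a receptor kinase related to AXL, had a log2 fold change of -0.11 (SE 0.11, limma adjusted p = 0.788). TGFBR1, a receptor for TGF-beta ligands such as TGFB2, had one of 0.19 (SE 0.10, adjusted p = 0.597). BMP4, a ligand of the family that CRIM1 binds, had one of -0.36 (SE 0.33, adjusted p = 0.756). With a library left out BMP4 ran from -0.70 without VS-4718 replicate 1 to -0.06 without VS-4718 replicate 3, and MERTK from -0.20 to -0.06.

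The rows most like a target gene were found by the root mean square difference of log2 values over the 6 libraries, after subtracting each row's vehicle mean. Only tested rows with a current human symbol were searched, so rows under a synonym or without a human match could not be named. Nearest to CYR61 were ZC3H10, a zinc finger RNA-binding protein (difference 0.07 log2 units), DUSP2, a nuclear MAP kinase phosphatase (0.08), and SRSF7, a splicing factor (0.09). ZC3H10 and SRSF7 were themselves past the limma threshold, at log2 fold changes of -0.75 (adjusted p = 0.0449) and -0.79 (adjusted p = 0.0233), and DUSP2 was not, at -0.65 (adjusted p = 0.237). Nearest to AMOTL2 were JPH1, a junctophilin (0.24), RGS3, a regulator of G protein signalling (0.31), and JUN, an AP-1 subunit (0.33). Nearest to CTGF were NCOA5, a nuclear receptor coactivator (0.25), BOLA2 (0.26), a row that may share reads with a near-identical human copy, and HRAS, a small GTPase (0.29). The differences for AMOTL2 and CTGF were several times those for CYR61, so their neighbours are loose.

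**Figure D5:**
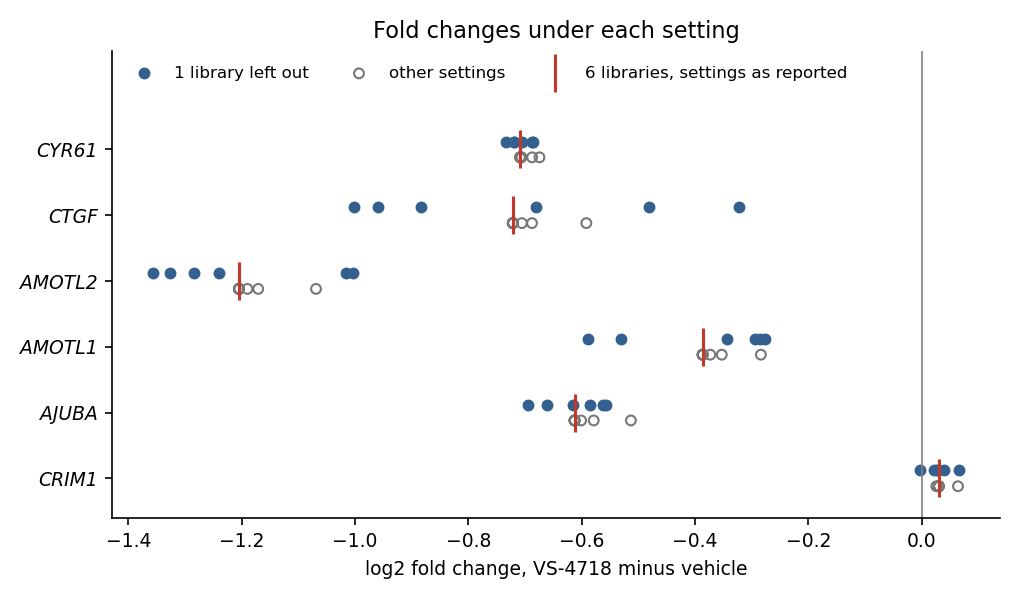
Log2 fold change, VS-4718 minus vehicle (horizontal axis), of each target gene in the fit of 6 libraries (red bar), with 1 library left out (blue points) and under the other settings tried (open circles). CYR61 and AJUBA stay within narrow ranges, CTGF runs from -1.0 to -0.32, and CRIM1 stays next to 0.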

How the data were processed

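Per the labels' protocols, cells were lysed in TRIzol, RNA was purified on columns, and an outside company prepared and sequenced the libraries. The deposited table holds log2 expression values per gene symbol; the submitters' processing notes name kallisto, without a version, and GRCh38, with the index, annotation and filters not given in the sources used. That the log2 values are of a TPM-like measure follows from the values. Of 12306 rows 9351 carried a current human symbol and 290 a synonym of 1 human gene.

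The values as given were fitted with limma 3.58.1 in R 4.3.3 (limma-trend, group as the only term). The 25% of rows with the lowest means were dropped, leaving 9229. Two-sided p-values had Benjamini-Hochberg adjustment over all tested rows, with a threshold of 0.05. Groups came from the treatment label. Named were the 10 target genes, and per list the 4 tested genes with the smallest p and any past the threshold. The rule also named the 3 tested rows with a current human symbol most like each of CYR61, AMOTL2 and CTGF. Gene names outside that rule are marked where they stand, apart from WTIP, AMOT and the marker genes. The target genes and the gene lists were chosen with earlier results of these data known.

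The fit was tested on data with known answers before use. It recovered 24% of 100 rows given a simulated shift of 0.5 log2 units. At a simulated shift of 1.0 log2 units the share recovered was 69%, again of 100 rows. Most simulated shifts of 0.5 log2 units were thus missed, so a row that did not pass may still have differed. How far these shares carry over to the real values was not tested. Other settings tried were a replicate block, leaving out each library, median scaling, other filters, pseudocounts of 0.1 and 1, limma without trend, robust variances and human names only. TPM-like values keep no depth, so no counting interval is given. Motifs were searched in RefSeq promoter windows and gene spans taken from GENCODE 29.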

Additional observations from a re-analysis of the deposited data

How the results depend on the processing

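The count of 12 rows past limma's adjusted threshold was 0 both with the replicate block and without the mean-variance trend, where 793 and 910 rows had an unadjusted p under 0.05. It ran from 0 to 7 with a library left out, where 706 to 990 rows did. The count of 1 target gene past that threshold, CYR61, was 0 in the same settings: with the replicate block (adjusted p = 0.199), without the trend (0.0781) and without any 1 of the 6 libraries. How far fewer degrees of freedom account for this was not tested. CYR61 kept its call in the other 7 settings. Same-numbered libraries had residual correlations across rows of 0.13, 0.05 and 0.03, so the replicate numbers were not taken to pair the libraries.

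The median log2 fold change of the target genes ran from -0.66 to -0.55 over the settings that tested all 6. When a library was left out, an alternative added after seeing the data, 3 or 4 of them had groups without overlap. Leaving out a library cannot create an overlap, so that count could not fall and tests nothing. With the filter at the 50th percentile CYR61 alone of the 6 was tested (-0.71). With a library left out, CRIM1 ran from -0.0024 to 0.0663 and FSTL1 from -0.1028 to 0.2278; CRIM1 turned negative without VS-4718 replicate 1, and FSTL1 without that library (-0.1028) or vehicle replicate 2 (-0.01448). Median scaling moved all fold changes by 0.034 and no target gene's direction or call.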
